A study of Mus musculus with 18 samples.

Results

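The ATF4 amino acid response genes are a module of 39 genes that cells switch on when amino acids run short or when translation initiation factor eIF2 is phosphorylated. The members are given by name: 7 transcription factors, 8 feedback and growth regulators, 9 enzymes of amino acid synthesis and one-carbon metabolism, 6 amino acid transporters and 9 cytosolic aminoacyl-tRNA synthetases. All 39 were found among the probe sets of the array (Mars under its newer symbol, Mars1), and a gene with several probe sets was read from the one with the highest mean. The filter on low intensities, which asked for more than 18.1 on at least 3 arrays, was passed by 38 members and 12257 genes in all. The member that did not pass was Vldlr, a lipoprotein receptor gene, whose intensity lay between 7.80 and 10.7 on the 18 arrays.

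The arrays were hybridised with RNA of RAW cells, an established mouse macrophage line grown in DMEM. The arms were R848 with 1 uM apilimod, R848 with 1 uM API09, R848 alone and medium, with 1 array each at 1, 3, 7 and 22 h, and a further 2 arrays held cells in medium at 0 h. R848, a synthetic agonist of mouse Toll-like receptor 7, was present at 0.1 mM in all arms but medium, by the labels. Apilimod inhibits PIKfyve, a lipid kinase of endosomes and lysosomes, and API09 is its inactive analog in the words of the series design. No arm had apilimod without R848. Nothing in the labels ties arrays to separate cultures, so a p-value here covers the spread among arrays, possibly technical spread only.

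When a kinase such as GCN2, which senses uncharged tRNA, or PERK, which senses stress in the endoplasmic reticulum, phosphorylates eIF2, most translation slows while the mRNA of Atf4 is translated better. The ATF4 protein pairs with C/EBP factors and binds a composite DNA element in the genes described here, which then supply amino acids, charge tRNA and, through Ppp1r15a and Trib3, feed back on the pathway. Because ATF4 is set largely by its translation, the level of Atf4 mRNA is a partial reading of its activity. In macrophages the same pathway meets inflammatory signalling, since Atf3 and Cebpb are also induced by Toll-like receptors.

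The binding element was looked for in the promoters, as the feature that joins many of the members. The search used TGATGNAA, the shared form of the C/EBP-ATF response element, on both strands and in the 250 bases before to 50 bases after each RefSeq transcript start (build GRCm38.p6). Windows were found for 33 members, and 12 of these genes (36.4%) had a match: Atf3, Nupr1, Trib3, Chac1, Asns, Pck2, Slc1a4, Aars, Gars, Iars, Yars and Vldlr. Of all 27025 genes with a window, 1219 (4.51%) had one. Aars had 2 matches and each of the other members 1. The stretches below, 100 bases each with the match in capitals, show the element in 4 members whose array values moved in different ways: Atf3 and Asns rose with apilimod at 3 and 7 h, Chac1 rose and later fell, and Nupr1 fell.
Atf3 (chr1:191183390-191183489, minus strand): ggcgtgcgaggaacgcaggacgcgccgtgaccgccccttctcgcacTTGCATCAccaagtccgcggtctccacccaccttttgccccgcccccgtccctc
Chac1 (chr2:119351003-119351102, plus strand): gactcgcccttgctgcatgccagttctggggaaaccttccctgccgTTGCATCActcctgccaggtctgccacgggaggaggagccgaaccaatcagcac
Asns (chr6:7693179-7693278, minus strand): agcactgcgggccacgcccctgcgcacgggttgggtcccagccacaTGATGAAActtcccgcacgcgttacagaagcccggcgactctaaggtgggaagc
Nupr1 (chr7:126625527-126625626, minus strand): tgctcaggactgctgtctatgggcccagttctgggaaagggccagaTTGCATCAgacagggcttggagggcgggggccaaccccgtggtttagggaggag
The match starts at -110 in Atf3 and Nupr1, at -193 in Chac1 and at -23 in Asns, counted from the transcript start. The letters in capitals are identical in Atf3, Chac1 and Nupr1, where the element lies on the opposite strand. A match is a description of these letters and not a measured binding site, and its absence from a window says nothing of sites elsewhere. The same element stood before a gene that fell (Nupr1) and genes that rose.

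Median intensity differed little between arrays (17.5 to 19.2). The upper quartile at 22 h was 100.9 on the R848+apilimod array, 87.0 on the R848+API09 array and 103.6 on the R848 array of that hour, and 110.5 to 118.6 on the others. The 18S ribosomal control probe sets were brightest on the R848+API09 arrays at 22 h (mean log2 intensity 10.53) and 7 h (10.14). The part of these differences in the results was not tested.

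All 8 macrophage markers passed the filter. Over the 18 arrays Lyz2 ranged between 14533 and 17984, Cd68 between 4778 and 8931 and Csf1r between 2503 and 10504, while the dimmer Adgre1 lay between 390.1 and 2019, Itgam between 97.5 and 1251 and Fcgr3 between 154 and 869. Some of them moved with apilimod. At 3 h 1 of the 8 fell and none rose, at 7 h 4 fell (Itgam at -2.20 ± 0.10, Fcgr3 at -1.35 ± 0.11, Cd14 at -0.49 ± 0.08 and Ptprc at -0.32 ± 0.10) and Cd68 rose by 0.49 ± 0.10, and at 22 h 2 fell and Cd68 rose. Of 9 markers of other cell types on the array, 5 did not pass the filter: Col1a1 and Col1a2 of fibroblasts, Krt18 of epithelium, Cd3g of T cells and Cd79a of B cells, with at most 19.5 (Cd79a). The other 4 were dim, with at most 35.7 for Dcn of fibroblasts, 61.0 for Epcam and 26.8 for Krt8 of epithelium and 39.4 for Cd3e of T cells, and at 22 h Dcn fell with apilimod (-0.48 ± 0.12) and Epcam rose by 0.31 ± 0.10. The part of these marker changes in the results was not tested.

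Apilimod raised 19 of the 38 members tested at 3 h and 28 at 7 h in R848-stimulated cells. At 22 h members were called both ways, and those that rose were near the share of all genes. The comparison set the R848+apilimod array of an hour against the R848+API09 and R848 arrays of that hour, called R848 controls here, on the log2(intensity + 16) scale. Fold changes on this scale understate the change of dim genes. A gene was called at an adjusted p of 0.05 (limma, Benjamini-Hochberg over 12257 genes, two-sided). At 1 h none of the 38 members was called, and 0% of all genes were called higher and 0% lower. At an unadjusted p of 0.05 there were 4 members, a count given without the share of all genes. At 3 h 19 members rose, against 5.07% of all genes, and 1 fell, against 4.12%. By 7 h 28 rose, against 9.81% of all genes, and 1 fell, against 9.81%. At 22 h 8 rose, against 20.2% of all genes, and 10 fell, against 14.3%.

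The 38 members had a median difference of 0.39 at 3 h and 0.46 at 7 h, followed by -0.07 at 22 h. The median over all genes was -0.03, -0.02 and 0.03 at these hours. The R848+apilimod array lay above both control arrays in 35 members at 3 h and in 35 at 7 h. At 22 h it lay above both in 14 and below both in 18, and at 1 h above both in 13 and below both in 13. At 7 h, when 28 of all 38 members rose, 16 of the 19 that had risen at 3 h rose. The 3 that did not were Sesn2, Slc7a1 and Slc38a2.

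**Figure D1:**
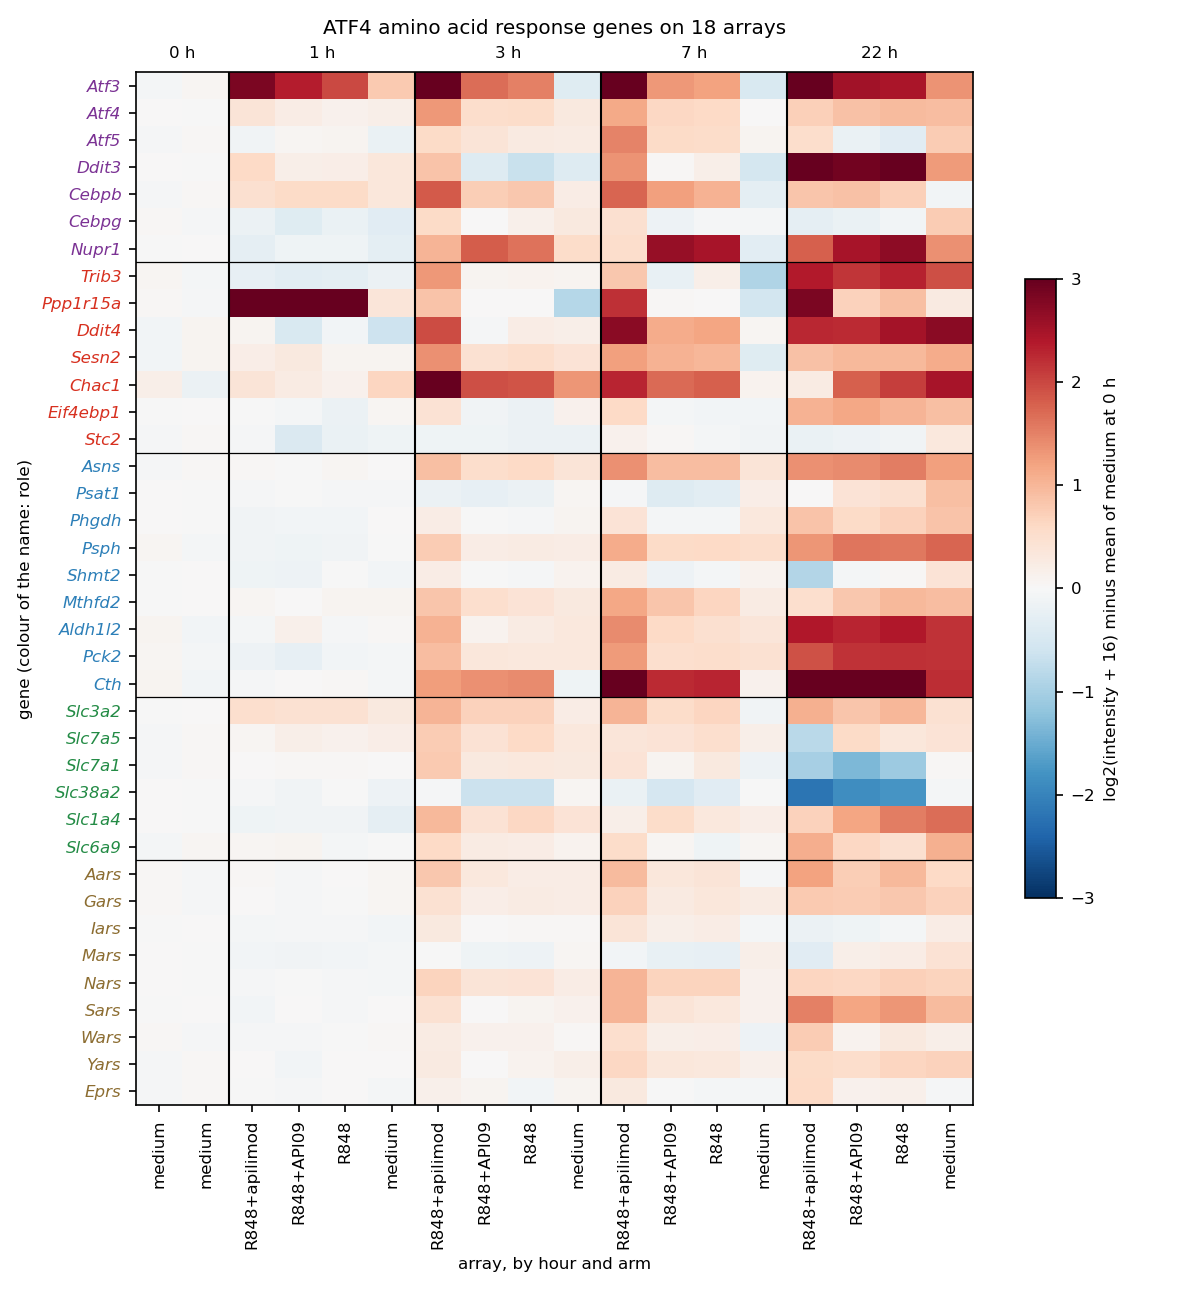
Levels of the 38 members tested on the 18 arrays, as log2(intensity + 16) minus the mean of the 2 medium arrays at 0 h, with colours ending at -3 and 3. Rows are genes grouped by role and columns are arrays grouped by hour, with R848+apilimod first in each hour from 1 h on. Red fills the R848+apilimod columns at 3 and 7 h more than their neighbours, and by 22 h the medium column is red too.

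**Figure D2:**
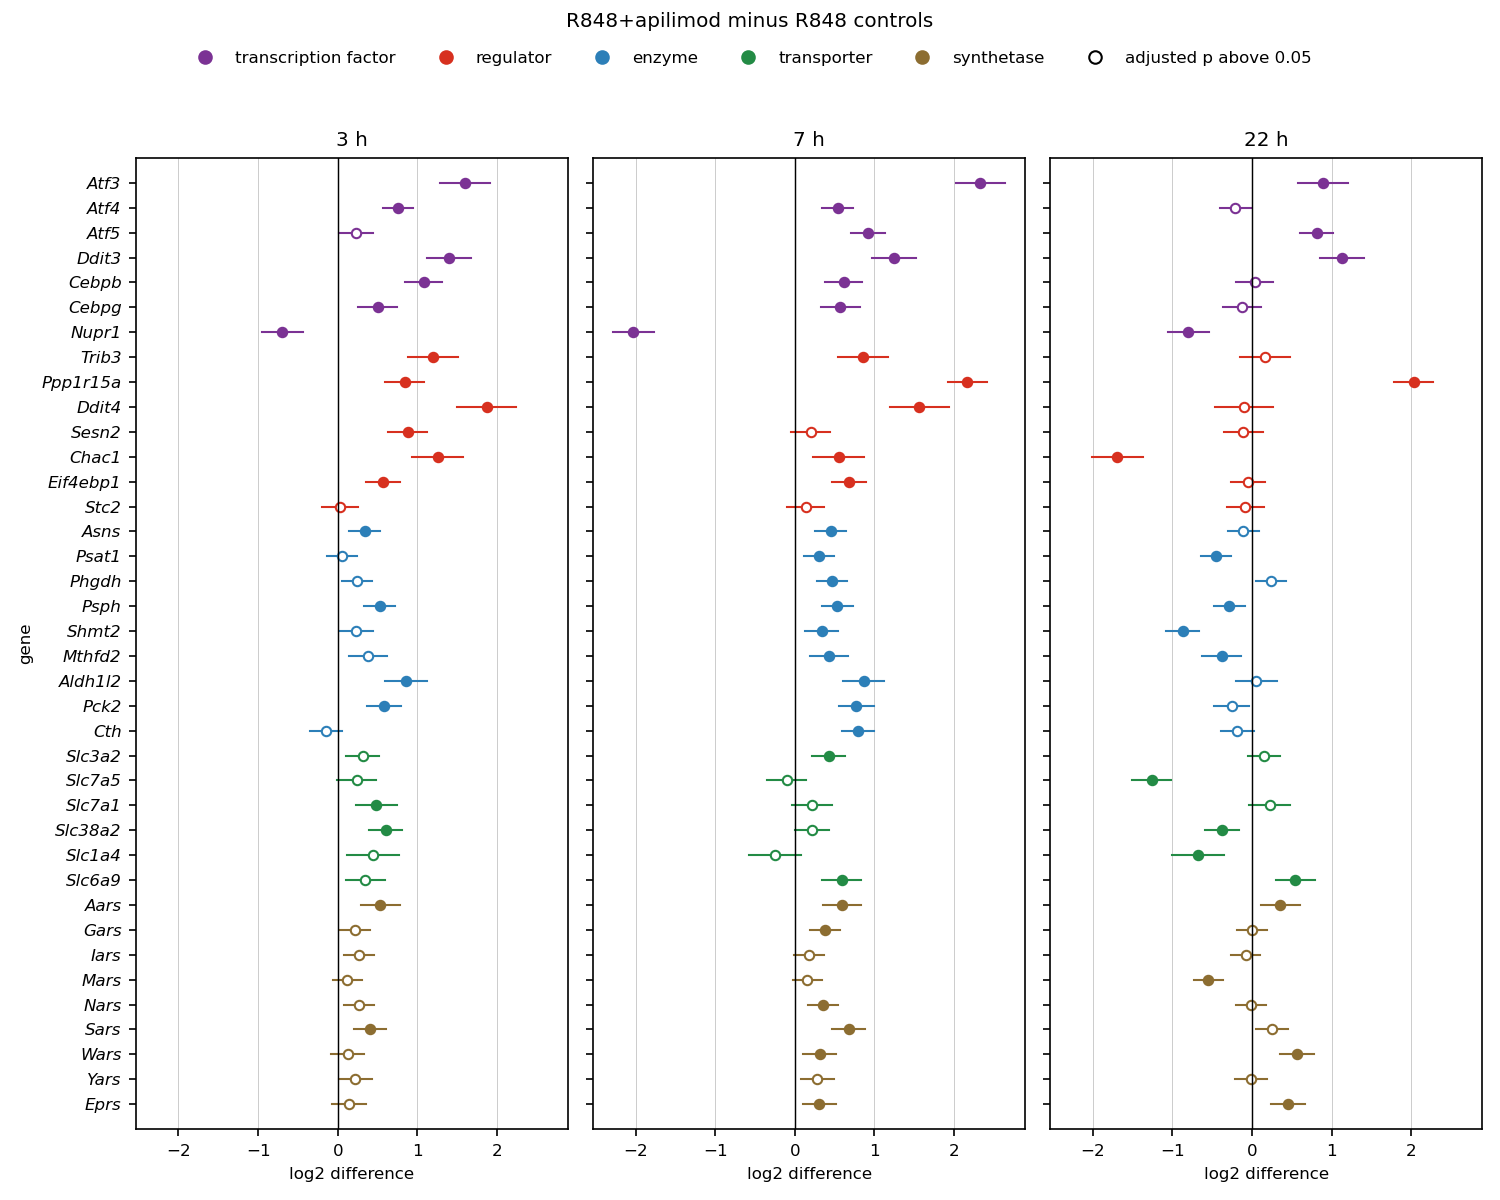
Log2 differences of R848+apilimod minus R848 controls at 3, 7 and 22 h for the 38 members, with 95% intervals from the fit. Filled points passed an adjusted p of 0.05. At 3 and 7 h the filled points lie right of 0 except Nupr1, and at 22 h they lie on both sides.

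Among the 7 transcription factors, 5 rose and 1 fell at 3 h, 6 rose and 1 fell at 7 h, and 3 rose and 1 fell at 22 h with apilimod. Atf4, the factor that gives the module its name, was at 2579.7, 4834, 4358 and 3209 on R848+apilimod arrays at 1, 3, 7 and 22 h, against 2303, 2842, 3036 and 3608 on R848+API09 arrays and 2139, 2869.6, 2966 and 3806 on R848 arrays. Medium arrays of Atf4 had 1966 and 1950.4 at 0 h and 2206, 2398, 1969 and 3709.7 at the later hours. The R848+apilimod array was the highest at 3 and 7 h and the lowest of the 4 arms at 22 h. The difference from R848 controls was 0.76 ± 0.09 at 3 h (log2 and its standard error, 1 array against 2, adjusted p = 0.000161) and 0.54 ± 0.09 at 7 h (adjusted p = 0.000993). At 22 h it was -0.21 ± 0.09 and was not called (adjusted p = 0.0921). Of the other Atf4 probe sets, 1 with a mean intensity of 1044 showed 0.84, 0.47 and -0.74 at 3, 7 and 22 h, and a dim one (mean 19.2) showed -0.05 at 3 h.

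Atf3, a stress-induced factor that also restrains inflammatory genes, was at 1724, 2226, 2939 and 2558 on R848+apilimod arrays, against 1240.3, 768, 591 and 1406 on R848+API09 arrays and 954, 688, 552 and 1329 on R848 arrays at 1, 3, 7 and 22 h. Its medium arrays had 219 and 242 at 0 h and 408, 175, 163 and 614 at the later hours. The arms stood in 1 order at all 4 hours, R848+apilimod above both controls and these above medium. Atf3 rose with apilimod by 1.59 ± 0.14 at 3 h, 2.33 ± 0.14 at 7 h (adjusted p = 4.87e-07) and 0.90 ± 0.14 at 22 h. At 1 h the difference of 0.66 ± 0.14 was not called (adjusted p = 1).

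Ddit3 encodes CHOP, a factor that promotes cell death under lasting stress. R848+apilimod arrays had 343, 412, 585 and 4105 for Ddit3 at 1, 3, 7 and 22 h, against 249, 163, 226 and 1737 on R848+API09 arrays and 256, 131, 249 and 1987 on R848 arrays. Medium arrays had 220.5 and 219 for Ddit3 at 0 h and 282, 165, 146 and 558 at the later hours. It was highest on the R848+apilimod array at every hour, and each arm had its highest level at 22 h. Ddit3 rose with apilimod by 1.40 ± 0.13 at 3 h, 1.25 ± 0.13 at 7 h and 1.14 ± 0.13 at 22 h (adjusted p = 4.58e-05). A dim second probe set of Ddit3 (mean 37.5) showed 0.61, 0.73 and 0.63 at these hours.

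Atf5, an ATF4 relative whose translation is controlled in the same way, was at 128, 215, 421 and 211 on R848+apilimod arrays at the 4 hours, against 147, 190.0, 218 and 120.0 on R848+API09 arrays and 149, 173, 213 and 107 on R848 arrays. On medium arrays Atf5 had 137 and 144 at 0 h and 120.3, 169.9, 149 and 250.4 at 1 to 22 h. The R848+apilimod level at 7 h was the highest of all 18 arrays. Atf5 rose with apilimod by 0.92 ± 0.10 at 7 h and 0.81 ± 0.10 at 22 h, while the 0.23 ± 0.10 at 3 h was not called (adjusted p = 0.225).

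Cebpb, a factor of macrophage activation and a partner of ATF4, was at 1440.0, 3736, 3474 and 1835 on R848+apilimod arrays, against 1524, 1719.7, 2416 and 1895 on R848+API09 arrays and 1545, 1801, 2116 and 1692 on R848 arrays. Medium arrays of Cebpb had 1007 and 1044 at 0 h and 1308, 1205, 836 and 965 at the later hours. Cebpb rose with apilimod by 1.08 ± 0.11 at 3 h and 0.62 ± 0.11 at 7 h, and stood at 0.04 ± 0.11 at 22 h. Cebpg, a dimer partner of ATF4, was at 189.8, 332, 309 and 176 on R848+apilimod arrays, against 165, 217, 194 and 185 on R848+API09 arrays and 187, 244, 211 and 203 on R848 arrays. For Cebpg medium arrays had 221 and 213 at 0 h and 168, 269, 209 and 381 at the later hours. Cebpg rose by 0.50 ± 0.11 at 3 h and 0.57 ± 0.11 at 7 h and was at -0.13 ± 0.11 at 22 h. The 3 h call of Cebpg was lost without the R848+API09 array of that hour (adjusted p = 0.1), and its second probe set showed a difference of 0.05 at 7 h.

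Nupr1, which encodes a small stress-induced chromatin protein, was the member that fell with apilimod at 3 and 7 h. R848+apilimod arrays had 195, 497, 347 and 858 for Nupr1 at 1, 3, 7 and 22 h, against 215, 870.4, 1547 and 1395 on R848+API09 arrays and 216, 766, 1386 and 1624 on R848 arrays. Medium arrays had 235 and 240.4 for Nupr1 at 0 h and 189.9, 355, 188 and 640.2 at the later hours. From 3 h on the R848+apilimod array lay between the controls and medium. The difference from R848 controls was -0.70 ± 0.12 at 3 h, -2.03 ± 0.12 at 7 h (adjusted p = 3.40e-07) and -0.80 ± 0.12 at 22 h.

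**Figure D3:**
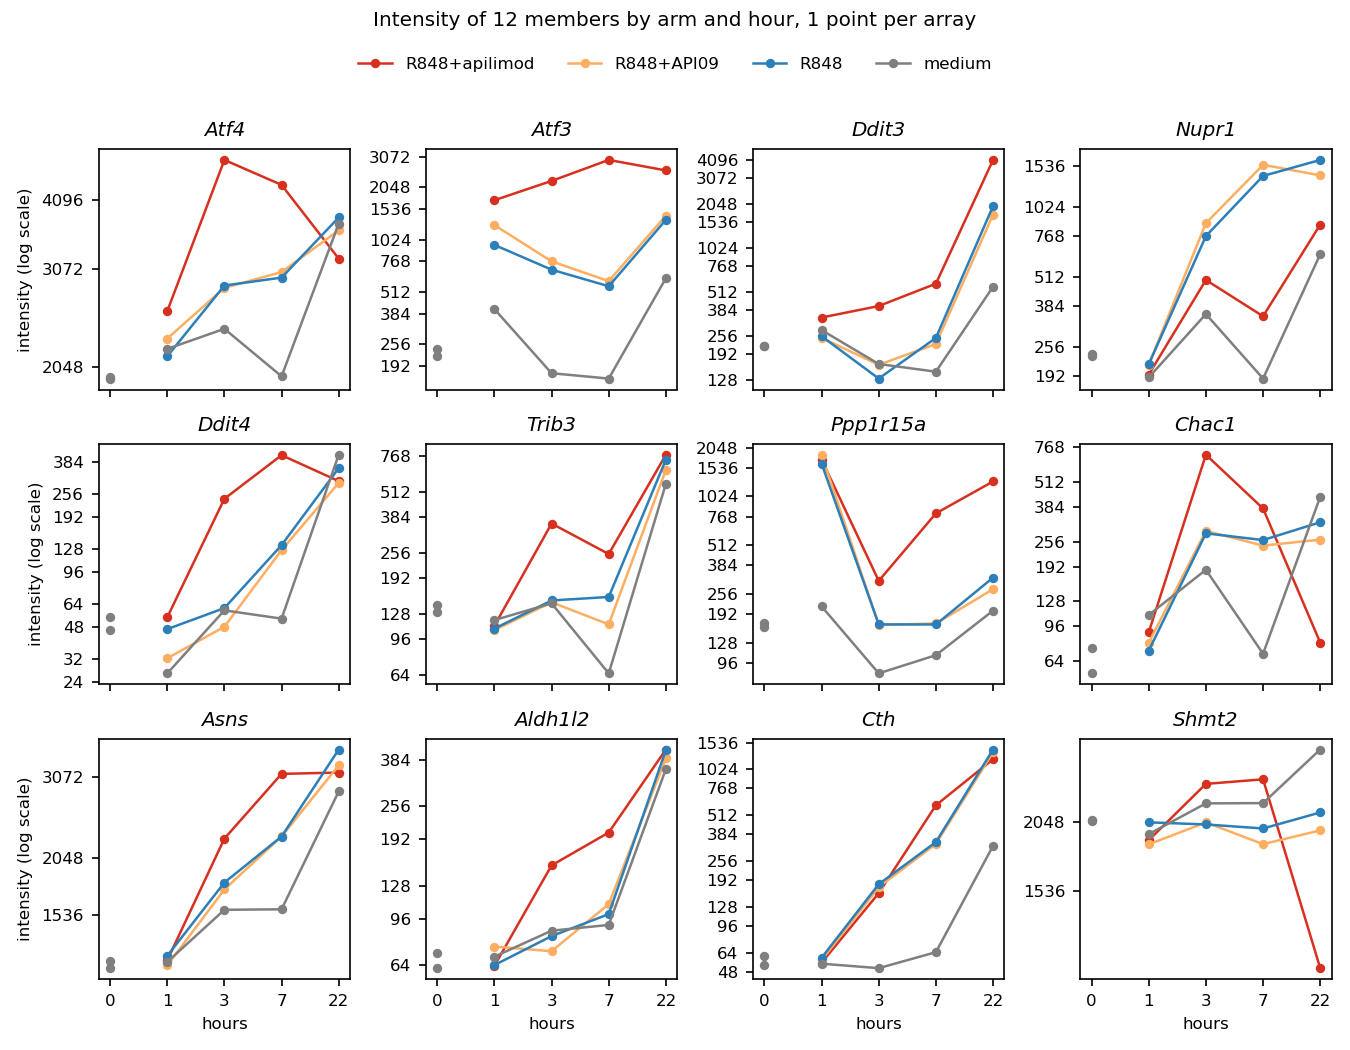
Intensity of 12 members by arm, 1 point per array, with the hours 0, 1, 3, 7 and 22 at equal steps and intensity on a log axis that differs between panels. Grey points at 0 h are the 2 medium arrays. The red R848+apilimod line of Atf3 and Ddit3 runs above the others at all 4 hours, that of Nupr1 runs below the controls from 1 h on, and those of Chac1 and Shmt2 cross to the lowest place at 22 h.

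Of the 7 feedback and growth regulators tested, 6 rose at 3 h and 5 at 7 h with apilimod and none fell, with a median difference of 0.88 and 0.68. At 22 h 1 rose, Ppp1r15a, and 1 fell, Chac1. Ddit4, which encodes the mTORC1 inhibitor REDD1, was at 54.3, 241, 418 and 301 on R848+apilimod arrays at 1, 3, 7 and 22 h, against 32.4, 48.2, 127 and 295 on R848+API09 arrays and 46.8, 61.0, 135 and 355 on R848 arrays. Its medium arrays held 46.4 and 54.3 at 0 h and 26.8, 59.3, 53.4 and 420.1 at the later hours. Ddit4 had the largest rise of the module at 3 h, 1.87 ± 0.17 (adjusted p = 2.38e-05), rose by 1.56 ± 0.17 at 7 h and was at -0.10 ± 0.17 at 22 h, when medium was the highest arm.

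Trib3, a pseudokinase gene whose product restrains ATF4, was at 112, 358, 253 and 783 on R848+apilimod arrays, against 107, 146, 114 and 659 on R848+API09 arrays and 109, 149, 156 and 739.8 on R848 arrays. The medium arrays of Trib3 had 142 and 132 at 0 h and 119.6, 145, 65.3 and 563 at 1, 3, 7 and 22 h. Trib3 rose with apilimod by 1.19 ± 0.14 at 3 h and 0.85 ± 0.14 at 7 h. At 22 h all 4 arms were above every earlier array, and the difference of 0.16 ± 0.14 was not called.

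Ppp1r15a encodes GADD34, the phosphatase subunit that reverses eIF2 phosphorylation. It was at 1729.7, 308, 805 and 1267 on R848+apilimod arrays at 1, 3, 7 and 22 h, against 1853, 165, 168 and 274 on R848+API09 arrays and 1633, 166, 166 and 323 on R848 arrays. Medium arrays of Ppp1r15a had 169 and 159.6 at 0 h and 215, 82.8, 107 and 202 at the later hours. All 3 R848 arms peaked together at 1 h, where apilimod made a difference of -0.01 ± 0.11, and parted afterwards. With apilimod Ppp1r15a rose by 0.84 ± 0.11 at 3 h, 2.16 ± 0.11 at 7 h and 2.03 ± 0.11 at 22 h (adjusted p = 2.73e-07), the largest rise of the module at that hour.

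Chac1, whose product breaks down glutathione, was at 89.4, 706, 377 and 79.2 on R848+apilimod arrays at 1, 3, 7 and 22 h, against 79.0, 291, 245 and 263 on R848+API09 arrays and 72.1, 283, 261 and 322 on R848 arrays. On medium arrays Chac1 had 74.0 and 55.4 at 0 h and 109, 185, 69.6 and 432 at the later hours. The R848+apilimod array was the highest arm at 3 and 7 h and the lowest at 22 h. Chac1 rose by 1.25 ± 0.14 at 3 h and 0.55 ± 0.14 at 7 h and fell at 22 h, with a difference of -1.69 ± 0.14 (adjusted p = 7.35e-06). The 7 h call was lost without the R848+API09 array of 7 h (adjusted p = 0.0934). Sesn2, another inhibitor of mTORC1, rose by 0.88 ± 0.11 at 3 h and was at 0.20 at 7 h, not called. Its second probe set, about as bright, showed 0.56 at 7 h, and the mean of both was called there at 0.38 (adjusted p = 0.0101) and at 22 h at -0.25 (0.0496). Eif4ebp1, a translation repressor, rose by 0.57 ± 0.10 at 3 h and 0.68 ± 0.10 at 7 h. Stc2, which encodes a secreted glycoprotein, was called at none of these hours, with differences of 0.03, 0.14 and -0.08.

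The 9 enzymes were called mainly at 7 h. At 3 h 4 rose (Asns, Psph, Aldh1l2 and Pck2), at 7 h all 9 rose with a median difference of 0.46, and at 22 h none rose and 4 fell (Psat1, Psph, Shmt2 and Mthfd2). Asns, the asparagine synthetase gene, was at 1228, 2255, 3114 and 3135 on R848+apilimod arrays at 1, 3, 7 and 22 h, against 1197, 1749, 2279 and 3249.5 on R848+API09 arrays and 1255, 1810.4, 2278 and 3517 on R848 arrays. Medium arrays of Asns had 1181 and 1221 at 0 h and 1218, 1580.2, 1584 and 2853 at the later hours. The difference was 0.34 ± 0.09 at 3 h (adjusted p = 0.036), 0.45 ± 0.09 at 7 h (adjusted p = 0.00377) and -0.11 ± 0.09 at 22 h. The 3 h call of Asns was lost when any of 8 single arrays was left out (adjusted p up to 0.179).

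Serine is made by the products of Phgdh, Psat1 and Psph in sequence. Phgdh was at 2324, 2888, 3297 and 4539 on R848+apilimod arrays, against 2344, 2469, 2385 and 3687 on R848+API09 arrays and 2335, 2407, 2391 and 4008 on R848 arrays. Medium arrays of Phgdh had 2489.8 and 2480.5 at 0 h and 2487, 2634, 3119.6 and 4480.2 at the later hours. Phgdh rose with apilimod by 0.46 ± 0.09 at 7 h and stood at 0.24 ± 0.09 at 22 h, not called. Psat1 was at 3074, 2804, 3059.9 and 3161 on R848+apilimod arrays, against 3109.9, 2643, 2427 and 4210.4 on R848+API09 arrays and 3079, 2778, 2529 and 4439 on R848 arrays. For Psat1 medium arrays had 3199 and 3118 at 0 h and 3062, 3300.0, 3615 and 5918 at the later hours, so that medium was the highest arm from 3 h on. Psat1 rose by 0.30 ± 0.09 at 7 h, a call lost without any of 6 single arrays (adjusted p up to 0.129), and fell at 22 h, with a difference of -0.45 ± 0.09. Psph rose by 0.53 ± 0.09 at 3 h and 0.53 ± 0.09 at 7 h and fell at 22 h (-0.28 ± 0.09), the last call being lost without the R848+API09 or the R848 array of 3 h (adjusted p up to 0.0504).

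Shmt2, Mthfd2 and Aldh1l2 encode mitochondrial enzymes of folate-bound one-carbon metabolism. Shmt2 was at 1897, 2394, 2439 and 1117 on R848+apilimod arrays at 1, 3, 7 and 22 h, against 1864, 2041, 1866 and 1975 on R848+API09 arrays and 2042, 2024, 1990.4 and 2127 on R848 arrays. Medium arrays of Shmt2 had 2057 and 2062 at 0 h and 1945, 2208, 2211 and 2759 at the later hours. The R848+apilimod array at 22 h was the lowest of all 18. Shmt2 rose by 0.34 ± 0.09 at 7 h (adjusted p up to 0.132 without the R848+API09 array of 7 h or either medium array at 0 h) and fell at 22 h, with a difference of -0.87 ± 0.09 (adjusted p = 4.26e-05). Mthfd2 rose by 0.43 ± 0.11 at 7 h (adjusted p = 0.0973 without the R848 array of 7 h) and fell at 22 h (-0.38 ± 0.11). Aldh1l2 was at 63.7, 153, 204 and 419.8 on R848+apilimod arrays, against 75.4, 72.4, 109 and 388 on R848+API09 arrays and 64.1, 82.5, 99.98 and 418 on R848 arrays. For Aldh1l2 medium arrays had 71.1 and 62.4 at 0 h and 69.0, 86.5, 91.0 and 354 at the later hours. It rose by 0.86 ± 0.12 at 3 h and 0.87 ± 0.12 at 7 h, and by 22 h the 4 arms lay close together (0.06 ± 0.12).

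Pck2, the mitochondrial phosphoenolpyruvate carboxykinase gene, was at 209, 455, 594 and 929 on R848+apilimod arrays, against 194, 302, 336 and 1105 on R848+API09 arrays and 220.0, 296, 346 and 1116 on R848 arrays. Medium arrays of Pck2 had 246 and 222 at 0 h and 225, 297, 326 and 1106 at the later hours. It rose by 0.58 ± 0.10 at 3 h and 0.77 ± 0.10 at 7 h with apilimod and was at -0.25 ± 0.10 at 22 h. Cth, whose product makes cysteine from cystathionine, was at 54.9, 157, 594 and 1194 on R848+apilimod arrays, against 57.1, 173, 331 and 1328 on R848+API09 arrays and 59.1, 180.2, 341 and 1383 on R848 arrays. For Cth medium arrays had 60.9 and 53.4 at 0 h and 54.1, 50.5, 64.4 and 322 at the later hours. Every R848 arm was above medium from 3 h on. Apilimod made a difference of -0.15 ± 0.09 at 3 h, not called, a rise of 0.79 ± 0.09 at 7 h and a difference of -0.18 ± 0.09 at 22 h, not called.

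The 6 transporters divided. At 3 h 2 rose (Slc7a1 and Slc38a2), at 7 h 2 rose (Slc3a2 and Slc6a9), and at 22 h 1 rose (Slc6a9) and 3 fell (Slc7a5, Slc38a2 and Slc1a4). Slc7a5 encodes the light chain of the leucine transporter LAT1 and Slc3a2 its heavy chain. Slc7a5 was at 523, 859.7, 649 and 283 on R848+apilimod arrays at 1, 3, 7 and 22 h, against 569, 688, 678 and 753 on R848+API09 arrays and 556, 768, 720.0 and 644 on R848 arrays. Medium arrays of Slc7a5 had 492 and 517 at 0 h and 585, 636, 569.7 and 677 at the later hours. The R848+apilimod array at 22 h was the lowest of the 18, a difference of -1.25 ± 0.11 (adjusted p = 9.14e-06). Slc3a2 rose by 0.43 ± 0.09 at 7 h and was at 0.15 ± 0.09 at 22 h, so the genes of the chains stood apart at that hour.

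Slc1a4, a neutral amino acid transporter gene, was at 38.5, 99.6, 51.3 and 79.0 on R848+apilimod arrays, against 38.8, 63.5, 71.1 and 118 on R848+API09 arrays and 39.3, 74.9, 57.9 and 156 on R848 arrays. Medium arrays of Slc1a4 had 44.1 and 42.2 at 0 h and 33.1, 63.0, 51.8 and 173 at the later hours. It fell at 22 h, with a difference of -0.68 ± 0.15. Slc7a1, the cationic amino acid transporter gene, was at 896, 1550.5, 1175 and 437 on R848+apilimod arrays, against 909, 1092, 946 and 340.4 on R848+API09 arrays and 915, 1114, 1081 and 407 on R848 arrays. For Slc7a1 medium arrays had 871 and 901 at 0 h and 892, 1084, 789 and 913 at the later hours. Slc7a1 rose by 0.49 ± 0.12 at 3 h, a call lost without the R848+API09 or the R848 array of 3 h (adjusted p up to 0.104), and its 2 bright probe sets differed in sign at 22 h, at 0.22 for the one used and -0.48 for the other.

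Slc38a2, which encodes a transporter of small neutral amino acids, was at 2214, 2205, 1976 and 484 on R848+apilimod arrays, against 2109.8, 1457, 1607 and 613 on R848+API09 arrays and 2256, 1439.9, 1788 and 651 on R848 arrays. On medium arrays Slc38a2 had 2279 and 2277 at 0 h and 2053, 2388, 2277 and 2199.6 at the later hours. All 3 R848 arms were below medium at 22 h. Slc38a2 rose with apilimod by 0.60 ± 0.10 at 3 h and fell at 22 h (-0.37 ± 0.10). Another probe set of the gene was at 0.41 at 22 h. With the mean of its probe sets the difference was 0.34 at 3 h (adjusted p = 0.0981) and 0.090 at 22 h (0.583), so both calls and the direction at 22 h rest on the probe set used. Slc6a9, a glycine transporter gene, rose by 0.59 ± 0.11 at 7 h and 0.54 ± 0.11 at 22 h. A dimmer Slc6a9 probe set showed 0.08 at 7 h and 0.41 at 22 h.

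The 9 cytosolic synthetases, each of which loads tRNA with the amino acid whose single-letter code opens its name (Eprs with glutamate and proline), rose by small amounts. At 3 h 2 rose (Aars and Sars), at 7 h 6 (Aars, Gars, Nars, Sars, Wars and Eprs) with a median difference of 0.31, and at 22 h 3 rose (Aars, Wars and Eprs) and 1 fell (Mars). Wars, for tryptophan, was at 483, 595, 715 and 859 on R848+apilimod arrays, against 489.6, 544, 568 and 539.9 on R848+API09 arrays and 497, 545, 578 and 613 on R848 arrays. Medium arrays of Wars had 511 and 486 at 0 h and 512, 508, 445 and 563 at the later hours. Wars rose by 0.31 ± 0.09 at 7 h and 0.57 ± 0.09 at 22 h, when the R848+apilimod array was the highest of the 18. Mars, for methionine, was at 1177, 1241, 1182 and 981 on R848+apilimod arrays, against 1161, 1150.3, 1065 and 1417 on R848+API09 arrays and 1189.9, 1132, 1051 and 1472 on R848 arrays. For Mars medium arrays had 1266 and 1240.4 at 0 h and 1209.5, 1301, 1423 and 1711 at the later hours. The difference of Mars at 22 h was -0.55 ± 0.08 (adjusted p = 0.000414).

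Sars had the largest rise among the synthetases at 7 h, 0.67 ± 0.09, and Aars rose at all of 3, 7 and 22 h by 0.53, 0.59 and 0.36. Several of these small calls were lost when 1 array was left out: Aars at 3 h without the R848 array of 3 h (adjusted p = 0.0695) and at 22 h without the R848+API09 array of 22 h (adjusted p = 0.0536), Sars at 3 h without either control array of 3 h (up to 0.0959), Nars at 7 h without the R848+API09 array of 7 h (0.0535), Eprs at 7 h without any of 6 arrays (up to 0.156) and Wars at 7 h without any of 8 arrays (up to 0.134). Iars and Yars were called at none of these hours.

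The difference that apilimod made was lower at 22 h than at 7 h in 21 of 38 members. Tested as a contrast of its own, the apilimod difference at 22 h minus that at 7 h was lower in 21 members, against 8.77% of all genes, and higher in 1, against 11.3%. The median was -0.49 for the members and 0.05 for all genes. The member that was higher in this contrast was Nupr1, whose fall at 7 h was larger than at 22 h (1.23 ± 0.17). Among the members that were lower, Chac1 changed most, by -2.24 ± 0.20 (adjusted p = 3.75e-05), followed by Ddit4 at -1.66 ± 0.24, Atf3 at -1.43 ± 0.20 and Shmt2 at -1.20 ± 0.13. For Ddit3, Ppp1r15a and Atf5 the change was small and not called (-0.11, -0.13 and -0.10, with 95% intervals of -0.50 to 0.28, -0.48 to 0.22 and -0.40 to 0.19). Chac1, Psat1, Psph, Shmt2 and Mthfd2 rose at 7 h and fell at 22 h. All 8 members that rose at 22 h (Atf3, Atf5, Ddit3, Ppp1r15a, Slc6a9, Aars, Wars and Eprs) had also risen at 7 h. At that hour 28 of all 38 members tested had risen.

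Between 3 and 7 h fewer members changed. The contrast of 7 h minus 3 h was higher in 3 members (Ppp1r15a at 1.33 ± 0.16, Cth at 0.94 ± 0.13 and Atf5 at 0.69 ± 0.14), against 2.24% of all genes. It was lower in 2 (Nupr1 at -1.33 ± 0.17 and Sesn2 at -0.68 ± 0.16), against 2.52%. Atf5 was lost there without the R848+API09 array of 3 h or the R848 array of 7 h (adjusted p up to 0.0652), and Sesn2 without any of the 4 control arrays of 3 and 7 h (up to 0.113) or with the mean of its probe sets (0.053). Median centring gave 2 higher and 3 lower here and quantile normalization 2 and 4. With 1 array left out, between 3 and 9 members were called in this contrast, 3 without the R848+API09 array of 3 h or the R848 array of 7 h and 9 without the R848+API09 or the R848 array of 22 h.

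The analogs were compared at the same dose of 1 uM and at the same hours. Against the R848+API09 array alone, R848+apilimod was higher in 18 members and lower in 1 at 3 h, against 4.23% and 3% of all genes. The counts were 25 and 1 at 7 h, against 8.57% and 7.79%, and 10 and 8 at 22 h, against 22.9% and 11.4%. Against the R848 array alone the counts were 15 and 1 at 3 h (4.16% and 3.26% of all genes), 23 and 1 at 7 h (7.9% and 7.69%) and 7 and 9 at 22 h (12.5% and 14.2%), so the balance at 22 h turned with the control array. At 1 h none was called against either array. Ddit3 differed from API09 by 1.25 ± 0.14 at 3 h and Atf4 by 0.76 ± 0.10. The absolute difference between the R848+apilimod and R848+API09 arrays had a median over the 38 members of 0.06 at 1 h, 0.46 at 3 h, 0.48 at 7 h and 0.30 at 22 h. Between the R848+API09 and R848 arrays it was 0.04, 0.06, 0.07 and 0.12 at these hours. At 22 h the R848+API09 array had the lowest upper quartile of the series, and its signed difference from the R848 array had a median of -0.10 over the members.

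Differences held over 1 to 22 h were also fitted with a term for each arm and the hour as a block. In that fit none of the 38 members and no gene passed for apilimod against API09 or for apilimod against R848 (0% higher and 0% lower in each). An unadjusted p under 0.05 was found for 16 and 12 members. The share of all genes at that p is not given here, so nothing is drawn from these counts. Effects that change with the hour add to the spread of that fit. Nor did any pass for API09 against R848, where none of the 38 had an unadjusted p under 0.05 and 0% of all genes were called either way. The API09 minus R848 difference over hours lay between -0.24 and 0.18. For Atf4 it was 0.01 ± 0.17 (95% interval -0.36 to 0.38), for Asns -0.06 ± 0.12 (-0.32 to 0.20) and for Ddit3 -0.02 ± 0.31 (-0.69 to 0.65), so these intervals give the size of difference between API09 and R848 that the arrays could still hold.

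**Figure D4:**
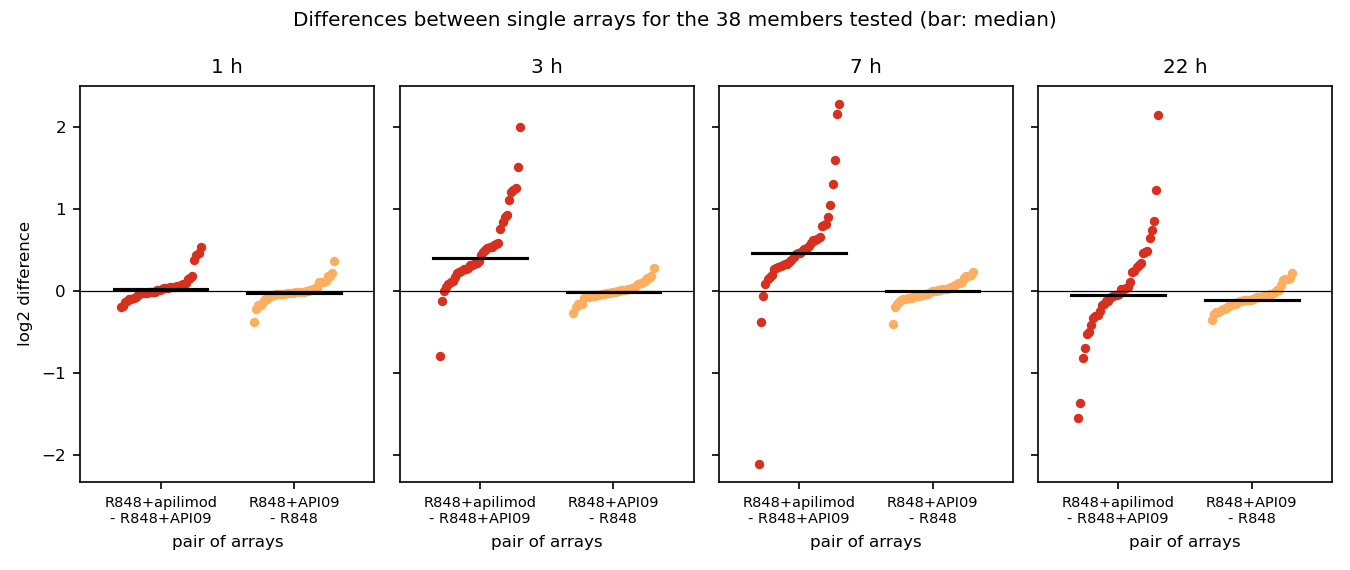
Log2(intensity + 16) differences between single arrays at 1, 3, 7 and 22 h, 1 point per member (38 points per column, bar at the median). The red points, R848+apilimod minus R848+API09, spread upward at 3 and 7 h and both ways at 22 h. The orange points, R848+API09 minus R848, have medians near 0 and reach -0.40 (Trib3 at 7 h) and 0.37 (Atf3 at 1 h).

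R848 without apilimod moved single members early and a larger set at 7 h. The comparison set R848 controls against the medium array of the hour. At 1 h 2 members rose, against 0.636% of all genes, and none fell, against 0.0653%. These were Ppp1r15a by 2.93 ± 0.11 and Atf3 by 1.38 ± 0.14. At 3 h 7 rose, against 6.23%, and 2 fell, against 9.19%. The largest rises were Atf3 at 1.96 ± 0.14, Cth at 1.53 ± 0.09, Nupr1 at 1.17 ± 0.12, Ppp1r15a at 0.88 ± 0.11 and Chac1 at 0.59 ± 0.14, and Slc38a2 (-0.71 ± 0.10) and Psat1 (-0.28 ± 0.09) fell. Psat1 was lost without any of 8 single arrays (adjusted p up to 0.219) and Chac1 without the R848+API09 or the R848 array of 3 h (up to 0.0791).

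At 7 h 20 members rose with R848, against 11.3% of all genes, and 4 fell, against 18.5%. Nupr1 led with 2.86 ± 0.12 (adjusted p = 1.86e-08), followed by Cth at 2.13 ± 0.09, Atf3 at 1.72 ± 0.14, Chac1 at 1.65 ± 0.14 and Cebpb at 1.42 ± 0.11. Atf4 rose by 0.60 ± 0.09, Ddit3 by 0.64 ± 0.13, Trib3 by 0.88 ± 0.14 and Asns by 0.52 ± 0.09. The serine genes went the other way: Psat1 fell (-0.54 ± 0.09), as did Phgdh (-0.38 ± 0.09), while Psph was at 0.04 ± 0.09, not called. Mars (-0.42 ± 0.08) and Slc38a2 (-0.42 ± 0.10) fell too. With the mean of its probe sets Slc38a2 was at -0.31 at 3 h (adjusted p = 0.0975) and -0.26 at 7 h (0.107), not called. Calls lost with 1 array left out were Aars and Wars without the R848 array of 7 h (adjusted p = 0.0716 and 0.061), Iars without any of 4 arrays (up to 0.111) and Slc7a1 without any of 7 (up to 0.198).

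At 22 h 9 members rose with R848, against 16.5% of all genes, and 11 fell, against 29.1%. The largest rises were Cth at 2.02 ± 0.09, Ddit3 at 1.71 ± 0.13, Nupr1 at 1.21 ± 0.12, Atf3 at 1.13 ± 0.14 and Cebpb at 0.88 ± 0.11, and the largest falls were Slc38a2 at -1.77 ± 0.10, Slc7a1 at -1.26 ± 0.12, Atf5 at -1.04 ± 0.10, Cebpg at -0.92 ± 0.11 and Chac1 at -0.55 ± 0.14. Atf4 was at -0.0015 ± 0.09. Calls of Asns and Mars at this hour were lost without any of 9 and any of 6 single arrays (adjusted p up to 0.0734 and 0.0612). The split depended on the scaling: with each array centred on its median over the genes tested, which moved the median of all genes at 22 h to 0.19, 17 members were higher and 6 lower (4505 and 2319 of all genes), and with quantile normalization 12 were higher and 10 lower (3243 and 2973 of all genes). At 3 h median centring gave 8 members higher and 1 lower (1109 and 945 of all genes) and quantile normalization 7 and 4, and at 7 h median centring gave 22 and 4 (1959 and 2003 of all genes). Over all hours 1 member passed as higher with R848, Atf3 at 1.46 ± 0.28 (adjusted p = 0.0294), and none as lower, against 0.8% and 0.196% of all genes. Quantile normalization gave 3 members higher and none lower there (128 and 71 of all genes). Without the arrays of 3, 7 or 22 h the count of members was 0 and without those of 1 h it was 5.

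Cells left in medium raised the module too by 22 h. Medium at 22 h stood above medium at 0 h for 30 of 38 members, against 11.2% of all genes, and below for none, against 10.8%. The median difference was 0.87 for the members and 0.01 for all genes. The largest were Ddit4 at 2.72 ± 0.17 (adjusted p = 4.47e-06), Chac1 at 2.48 ± 0.14, Cth at 2.21 ± 0.09, Pck2 at 2.17 ± 0.10 and Aldh1l2 at 2.16 ± 0.12. All 9 enzymes rose, with a median of 1.24, among them Psph at 1.74 ± 0.09 and Asns at 1.24 ± 0.09. Atf4 rose by 0.92 ± 0.09, Trib3 by 1.92 ± 0.14 and Ddit3 by 1.28 ± 0.13. The dim second probe set of Ddit3 (mean 37.5) went the other way, at -0.39. The members not called were Cebpb, Ppp1r15a, Stc2, Slc7a1, Slc38a2, Iars, Wars and Eprs, with differences between -0.09 (Cebpb) and 0.31 (Stc2). Shmt2 and Slc7a5 were lost without either medium array at 0 h (adjusted p up to 0.0531 and 0.111), and Shmt2 also with the mean of its probe sets (0.115).

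At the earlier hours medium held few such changes. At 1 h 1 member was called higher, Atf3 at 0.78 ± 0.14, and none lower, against 0.261% and 0.147% of all genes. At 3 h Chac1 rose by 1.33 ± 0.14 and Ppp1r15a fell (-0.87 ± 0.11), against 0.514% and 0.457%. At 7 h Psph rose by 0.53 ± 0.09 and Trib3 fell (-0.91 ± 0.14), against 0.139% and 0.204%. The medium array at 22 h is the one that all comparisons with medium at that hour use, and its own level was raised.

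The early apilimod rise and the late medium rise are differences between separate arrays and could be set side by side. Their calls are not separate, since both use the spread from the control pairs and the medium arrays at 0 h. Of the 28 members that rose with apilimod at 7 h, 24 also rose in medium by 22 h, where 30 of all 38 tested rose, so their share was near that of the whole module. Nupr1 fell in the first (-2.03) and rose in the second (1.37). Ppp1r15a had one of the largest apilimod differences (2.16) and 0.28 in medium, not called, while Aldh1l2 and Pck2 had 0.87 and 0.77 with apilimod and 2.16 and 2.17 in medium.

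**Figure D5:**
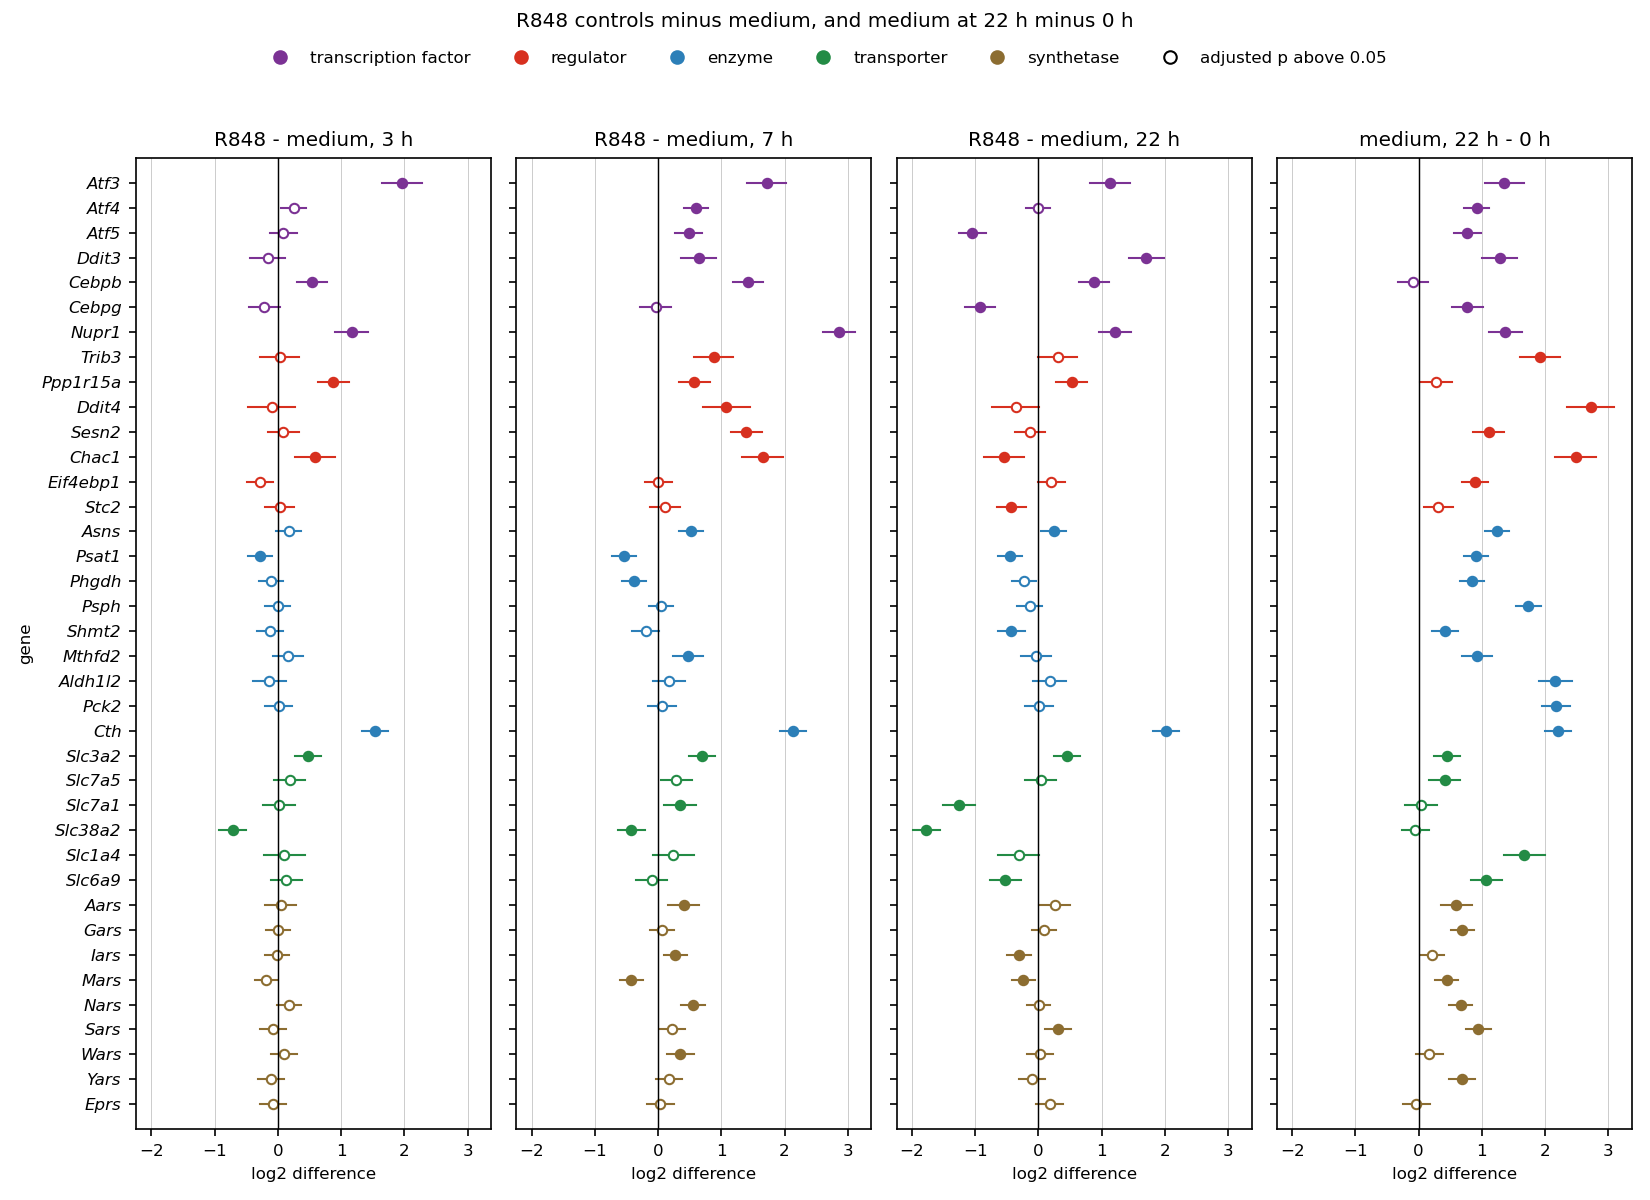
Log2 differences of R848 controls minus medium at 3, 7 and 22 h, and of medium at 22 h minus 0 h, with 95% intervals and filled points for an adjusted p of 0.05. In the last panel 30 of 38 points are filled and all of these lie right of 0, while the 22 h panel beside it holds filled points on both sides.

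Set against medium of the same hour, cells with both R848 and apilimod had 30 members higher and none lower at 7 h, against 12.3% and 19.1% of all genes, with a median of 0.84. With each array centred on its median the members split in the same way, and all genes gave 2056 higher and 2021 lower, against 1505 and 2336 without centring. Atf3 was higher by 4.05 ± 0.16, Cth by 2.93 ± 0.11, Ppp1r15a by 2.74 ± 0.13, Ddit4 by 2.64 ± 0.19 and Chac1 by 2.20 ± 0.17. Eprs (0.34) was lost without any of 4 single arrays (adjusted p up to 0.0566). At 22 h 12 were higher and 13 lower, against 21.5% and 25.8%, or 15 and 10 with each array centred on its median (4111 and 2549 of all genes). Ddit3 at 2.84 ± 0.14 and Ppp1r15a at 2.56 ± 0.13 were the highest, and Chac1 at -2.23 ± 0.17, Slc38a2 at -2.15 ± 0.11, Shmt2 at -1.29 ± 0.11 and Slc7a5 at -1.21 ± 0.13 the lowest. Trib3 (0.46) was lost without any of 6 single arrays (adjusted p up to 0.0539).

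Genes upstream of ATF4 were called with apilimod at about the share of all genes at 3 and 7 h. Of 15 genes for eIF2 kinases, eIF2, its exchange factor eIF2B and regulators, 1 rose at 3 h and none fell, 2 rose and 2 fell at 7 h, and 4 rose and 1 fell at 22 h. Over all genes 5.07% rose and 4.12% fell at 3 h, 9.81% each at 7 h, and 20.2% and 14.3% at 22 h. Impact, whose product restrains GCN2, was at 210.2, 474, 648 and 190.0 on R848+apilimod arrays at 1, 3, 7 and 22 h, against 203, 210.4, 260.2 and 94.6 on R848+API09 arrays and 217, 174, 297 and 132 on R848 arrays. Impact rose by 1.24 ± 0.17 at 3 h, 1.17 ± 0.17 at 7 h and 0.69 ± 0.17 at 22 h. At 7 h Eif2ak2, which encodes the kinase PKR, fell (-0.95 ± 0.15), Ppp1r15b, which encodes the constitutive counterpart of GADD34, fell (-0.63 ± 0.10), and Eif2b2, an eIF2B subunit gene, rose by 0.56 ± 0.09. In medium at 22 h against 0 h, 3 of the 15 were higher and 2 lower, against 11.2% and 10.8% of all genes.

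A further list held genes of the unfolded protein response, the response to stress in the endoplasmic reticulum, that are outside the module. Of 14, 1 rose with apilimod at 3 h (Dnajb9, a chaperone gene, by 0.59 ± 0.09) and none fell, and at 7 h 2 rose and 1 fell. At 22 h 7 rose and 2 fell, among them Syvn1 at 0.75 ± 0.12, Dnajb9 at 0.65 ± 0.09, Herpud1 at -0.57 ± 0.12 and Dnajc3 at 0.54 ± 0.11. The 3 and 7 h counts are near the shares of all genes (5.07% and 4.12%, then 9.81% each way), and at 22 h those were 20.2% and 14.3%. Hspa5, the main chaperone gene of the endoplasmic reticulum, was at 0.08 and 0.13 at 3 and 7 h, not called, and rose by 0.48 ± 0.08 at 22 h. In medium at 22 h against 0 h none of the 14 was higher and 7 were lower (Hspa5 at -0.42 ± 0.08), against 11.2% and 10.8% of all genes, in the comparison in which 30 members of the module were higher.

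Other genes known as ATF4 targets but outside the module were mixed. Of 11 tested, 2 rose and 3 fell with apilimod at 3 h, 4 rose and 4 fell at 7 h, and 4 rose and 5 fell at 22 h. The shares of all genes that rose and fell were 5.07% and 4.12% at 3 h, 9.81% each at 7 h, and 20.2% and 14.3% at 22 h, for these genes and the synthetases that follow. Gpt2, an alanine transaminase gene, rose by 0.64 ± 0.10 at 3 h and 0.53 ± 0.10 at 7 h, fell at 22 h (-1.01 ± 0.10), and rose in medium by 1.80 ± 0.10. Slc7a11, the cystine transporter gene, rose by 0.52 ± 0.11 at 7 h and 0.90 ± 0.11 at 22 h, and R848 without apilimod raised it by 2.93 ± 0.11 at 7 h. Gadd45a, a growth arrest gene, fell at 3 and 7 h (-1.21 ± 0.10 and -1.31 ± 0.10), and Jdp2, a bZIP factor gene, fell at 7 h (-1.84 ± 0.11). Among 10 cytosolic synthetases outside the module, 2 rose at 3 h, Cars at 0.44 ± 0.09 and Rars at 0.41 ± 0.09, and at 7 h 2 rose and 1 fell. Of 16 mitochondrial synthetases none was called at 3 or 7 h (0 and 1 at an unadjusted p of 0.05), and at 22 h 2 rose and 3 fell.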

How the data were processed

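Per the labels' protocols, RAW cell RNA was amplified with a NuGEN Ovation kit before hybridisation to Affymetrix mouse arrays of 1 colour. The authors deposited 1 linear intensity per probe set and array for 45101 probe sets. The submitters' processing notes name limma, without a version or role. The steps of background correction, summary and scaling were not given in the sources used here. Only probe sets with 1 gene symbol were used, and those brighter than 18.1, the median of the whole table, on 3 or more of the 18 arrays entered the fits.

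log2(intensity + 16) was fitted with limma 3.58.1 in R 4.3.3 with moderated variances and Benjamini-Hochberg adjustment over 12257 genes, called at 0.05, two-sided. In the fit within hours 1 mean stood for both control arrays of an hour (R848+API09 and R848), and these pairs, with the 2 medium arrays at 0 h, gave the spread (5 residual degrees of freedom). The lone R848+apilimod and medium arrays were taken to vary like these pairs. A second fit had a term per arm and the hour as a block. The members and gene lists were chosen with earlier results of these data known. Values on all arrays are given for the 5 largest called changes of each sign with apilimod, with R848 and in medium, plus Atf4, Ddit3, Asns and Trib3. From other lists up to 4 called genes per comparison are named. Some genes of these lists are not reported here, and Slc7a3 and Fgf21 did not pass the filter. The number of arrays limits the precision, and the median standard error of a member was 0.0977 for apilimod within an hour. The code was tested on simulated data. Alternatives were quantile normalization, median centring, no filter, a 75th percentile filter, the mean of a gene's probe sets, a pseudocount of 1, trend and robust variances, a minimum log2 difference of 1, 1 control arm alone and each control array or hour left out.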

Additional observations from a re-analysis of the deposited data

Results flagged for a closer look

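The difference that apilimod made was tested for a change between hours. It changed in 5 members between 3 and 7 h and in 22 between 7 and 22 h (limma, adjusted p of 0.05). In 5 members the apilimod difference was called in opposite directions at 7 and 22 h, and the 22 h minus 7 h contrast passed as well. It was -2.24 for Chac1 (0.55 at 7 h and -1.69 at 22 h), -1.20 for Shmt2 (0.34 and -0.87), -0.82 for Psph (0.53 and -0.28), -0.81 for Mthfd2 (0.43 and -0.38) and -0.75 for Psat1 (0.30 and -0.45). Each of the 5 lost 1 of its 2 calls when 1 array was left out, Chac1, Shmt2, Mthfd2 and Psat1 at 7 h and Psph at 22 h. With the R848 array alone as control the 7 h calls of Chac1, Shmt2 and Psat1 were lost as well. Psph at 22 h was lost with either control array alone. With the R848+API09 array alone Mthfd2 was called neither at 7 h nor at 22 h. At 22 h the upper quartile of intensity was lower on the stimulated arrays, 100.9 with apilimod, 87.0 with API09 and 103.6 with R848 alone. The part of that dimming in these values was not tested beyond the scalings given with the processing. No group held enough arrays to look for single arrays far from the others.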

How the results depend on the processing

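Each arm and hour had 1 array, so the spread rests on few pairs. Of 234 calls of members within hours, 185 held under every alternative other than the size minimum and 49 were lost under at least 1, for causes that were not tested. Within hours no alternative left out an R848+apilimod array or a medium array after 0 h, since each was the only one of its group. A deviation of such an array would therefore not show in these counts. Across all alternatives 2 differences called with or without the alternative turned sign, both with the mean of a gene's probe sets. Slc38a2 with apilimod at 22 h was then 0.090 and Pck2 with R848 at 22 h was -0.50. Among differences called in neither, a further 24 values turned sign with a change of at least the standard error. With an added minimum log2 difference of 1, which can only remove calls, the members called numbered 6, 5 and 4 for apilimod at 3, 7 and 22 h, 3, 7 and 7 for R848, 13 and 10 for R848+apilimod against medium at 7 and 22 h, 14 for medium at 22 h against 0 h, 2 for the 7 h minus 3 h contrast and 7 for 22 h minus 7 h. The 7 h minus 3 h contrast called 8 members with trend and robust variances, 3 with the R848 array alone as control and 3 to 9 with 1 array left out. For R848 against medium over hours, quantile normalization gave 3 and a pseudocount of 1 gave 2, against 1 before. Leaving out the 1 h arrays gave 5 members there, 5 for apilimod against R848 and 4 for apilimod against API09, and leaving out the 3, 7 or 22 h arrays gave 0 for R848 against medium. Every other count of members called, with higher and lower added, stayed within 1.5 times its value without the alternative. The separate counts of higher and lower members moved by more in some comparisons, such as R848 at 22 h with median centring. Another was R848 at 3 h with quantile normalization. Counts of members under an alternative that stand without those of all genes, here or above, show only the dependence on that setting. Arrays were paired by hour in the fit over hours, which had the hour as a block, and within an hour no fit by replicate number could be made, since each arm had 1 array.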
